A study of Homo sapiens with 10 samples.

Results

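The genes described here are the cyclins, kinases and inhibitors that control the G1 phase of the cell cycle, followed through the hepatic differentiation of human embryonic stem cells. They were chosen by name: of 10 listed genes, CCND1, CCND2, CCND3, CCNE1, CDK4, CDK6, CDKN1A, CDKN1B and RB1 were among the 12125 genes of the deposited table, which makes 9, and CDKN2C was not analysed here. The rule used names alone and no threshold.

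Human embryonic stem cells (hESCs) of the established line H1 were taken in serum-free medium towards hepatocyte-like cells, and bulk RNA was sequenced on 10 days, each with a single library and no replicate. The day 0 cells were untreated, those of days 1, 2 and 3 had Activin A, those of days 5 and 7 had FGF4 and BMP2, those of days 9 and 11 had HGF and KGF, and those of day 21 had Oncostatin M (OSM). Day 13 carries an OSM label, but the treatment scheme closes the HGF and KGF step on that day, and it is compared here as the close of that step. Per the study's methods the base medium changed as well. Undifferentiated cells were kept in mTeSR1, and the Activin A step used RPMI/B27 without insulin. The FGF4 and BMP2 step and the HGF and KGF step used RPMI/B27 with insulin, and the OSM step used hepatocyte culture medium. The growth factors of a step therefore cannot be told apart from its medium, insulin included. All libraries come from the same line.

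To divide, a cell in G1 makes D-type cyclins, which bind the kinases CDK4 and CDK6 and start the phosphorylation of RB1, the retinoblastoma protein. Cyclin E with CDK2 completes it, and the E2F factors that RB1 had held back then switch on the genes of DNA replication. The inhibitors p21 (CDKN1A), p27 (CDKN1B) and p57 (CDKN1C) bind cyclin and kinase complexes and slow this step, and p21 is the classic target of p53. Embryonic stem cells are known for a short G1 phase, whereas hepatocytes of the adult liver are mostly quiescent.

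The values are GC-normalized whole numbers of arbitrary scale, not read counts. Library totals lay between 2330948 and 2362740 and the median gene at 81 or 82, so the depth of a library cannot be read from them, and levels are not compared between genes because no length scale is known. Differences are of log2(value + 1). A gene is said to have risen or fallen where this difference was at least 1, that is 2-fold, and the larger value was at least 50. With 1 library per day these are descriptions with no p-value. Beside each difference stands the standard deviation (SD) of the differences between days 9 and 11 over the 500 genes nearest in level. These days share a medium, so that this SD holds technical and biological change together and is not a replicate error. All libraries held values above 0 for each of the 9 genes.

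The labelled stages were checked by their markers. The pluripotency factor POU5F1 was at 4861 in the day 0 library and at 5 in the day 21 library, and the endoderm factor SOX17 was at 2 on day 0 and 790 on day 3. The hepatic factor HNF4A was at 0 on day 0 and 1044 on day 7, and albumin (ALB) at 168 on day 13 and 4866 on day 21. Markers of other cells also moved with time. The 8 stromal markers, collagens among them, summed to 790, 699, 5039, 38640 and 41783 on days 0, 3, 7, 13 and 21. The largest value of every library was 18734. COL1A2 was at this ceiling on days 13 and 21, so the sums cannot show a further rise of it. Other high values also repeat exactly between days. COL3A1 was at 6502 on days 9, 11, 13 and 21, DCN at 2802 on days 13 and 21 and LIN28A at 2971 on days 0, 2 and 3. Near-equal high values or sums are therefore not read as a lack of change. The 8 markers of red blood cell precursors summed to 5 on day 0, with 6 of them at 0, and to 5741 and 2800 on days 13 and 21. Of the leukocyte markers 3 were in the table and summed to 74 on day 13 and 525 on day 21, with the defining marker PTPRC at 0 from day 3 to day 13. Of the endothelial markers 5 were in the table and summed to 585, 1974 and 1277 on days 0, 13 and 21. Their part in any value below was not tested. In bulk RNA, fewer cells that use a gene and less RNA of it per cell cannot be told apart.

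Over the whole course, day 21 against day 0, CCND3, CDK6, CDKN1A and RB1 rose and CDK4 fell. That is 4 of 9 genes higher, beside 23.9% of the 9698 genes compared over the whole table, and 1 of 9 lower, beside 26.4%. The cyclin D and kinase genes did not move as a block: CCND3 and CDK6 rose, CDK4 fell, CCND1 stood just short of the threshold on the low side and CCND2 was where it began. The median difference of the 9 genes was 0.52, beside -0.11 for all genes compared, and in a group this small nothing particular to these genes is read from the counts.

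**Figure D1:**
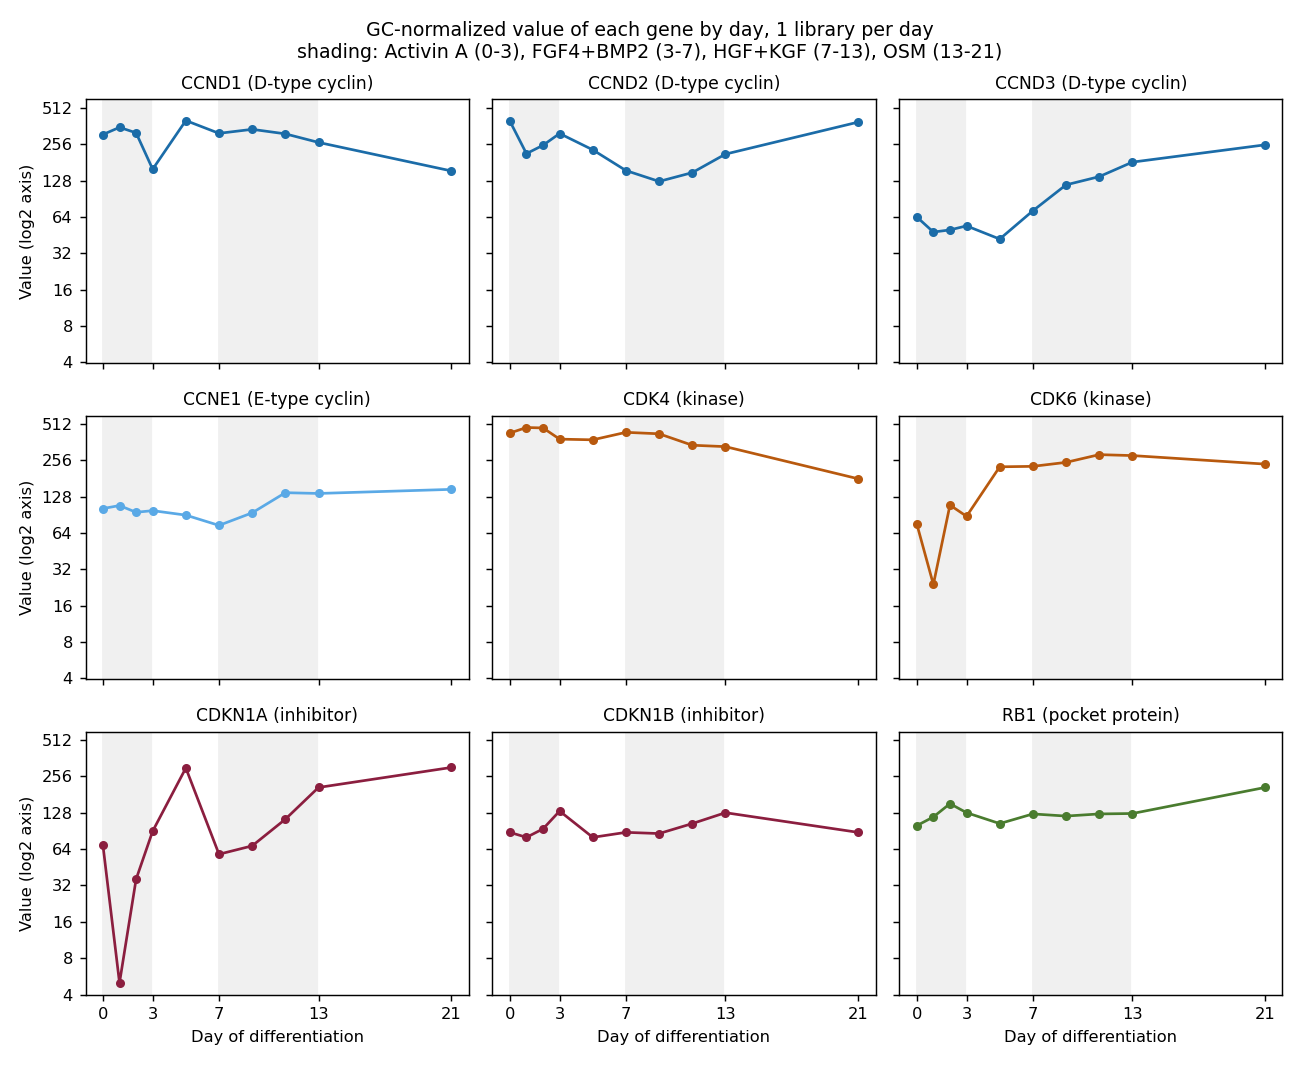
Deposited GC-normalized value of each of the 9 genes (vertical axis, log2 scale) against day of differentiation, with 1 point per library and shading for the growth factor steps. CDKN1A spans the widest range, from 5 at day 1 to 303 at day 21, while CDKN1B stays between 80 and 132.

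Cyclin D1 (CCND1, ENSG00000110092, listed at chr11:69455855-69469242 on the plus strand) is the D-type cyclin most often tied to growth factor signals. It was at 308, 353, 318, 159, 402, 315, 340, 312, 265 and 154 in the libraries in order of time, which are days 0, 1, 2 and 3, then days 5, 7, 9 and 11, then days 13 and 21. The values were nearly level except for 2 low libraries, at days 3 and 21. Ordered by level, days 21 and 3 stood below all others, and the step from day 3 up to day 13, the next in order, was 0.73 with an SD of 0.26, the 1 step of 9 that exceeded the SD. Day 3 differed from day 0 by -0.95 (SD 0.26) and day 7 from day 3 by 0.98 (SD 0.26), both short of the threshold. The low day 3 value was not shared by its neighbour, as day 2 differed from day 0 by 0.05. Between the ends of the course the difference was -0.995 (SD 0.27), also just short of it. Exons of LTO1, on the opposite strand, overlap those of CCND1 by up to 253 bases in GENCODE release 29. The kit named in the study's methods does not mark strand, so reads in the overlap cannot be told apart. LTO1, listed as ORAOV1, was itself between 25 and 53.

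Cyclin D2 (CCND2, ENSG00000118971, chr12:4382938-4414516, plus strand) followed a shallow bowl. Its values were 398, 214, 251, 314, 230, 155, 126, 149, 212 and 390 in the same order. The highest libraries were the untreated hESCs and the last day, and the lowest were days 9, 11 and 7. Between days 3 and 7 it fell by 1.01 (SD 0.26), just past the threshold. This call was lost with a pseudocount of 5 (-0.995), with median-of-ratios scaling (-0.98), with day 2 in place of day 3 (-0.69) and with day 5 in place of day 7 (-0.45). Later differences were 0.45 (SD 0.29) from day 7 to day 13 and 0.88 (SD 0.26) from day 13 to day 21, and between the ends of the course -0.03 (SD 0.25). In GENCODE release 29 an exon of AC008012.1 on the same strand overlaps CCND2 by 464 bases.

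Cyclin D3 (CCND3, ENSG00000112576, chr6:41902671-41909586, minus strand) was the D-type cyclin that rose late. It was at 64, 48, 50, 54, 42, 72, 118, 138, 182 and 253. The first 5 libraries lay at 64 or below and did not differ from their neighbours in order beyond the SD of 0.34, and from day 7 on each later library was higher than the one before. It rose by 1.33 (SD 0.34) from day 7 to day 13, or 2.53-fold, and by 1.97 (SD 0.30), or 3.95-fold, from day 0 to day 21. With day 11 in place of day 13 the first of these was 0.93, short of the threshold. The difference from day 13 to day 21 was 0.47 (SD 0.27). From day 7 on its order matches that of the summed stromal markers and equally that of the summed hepatic markers. Any list that rises steadily would match it, and the part of either was not tested.

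Because levels cannot be compared between genes, the makeup of the D-type cyclins was followed as ratios relative to day 0, a measure chosen after the values were seen. The ratio of CCND3 to CCND1 was 0.507 times its day 0 value at day 5, 1.66 times at day 9, 3.27 times at day 13 and 7.79 times at day 21. For CCND2 over CCND1 it was 0.288 times at day 9 and 1.95 times at day 21. Relative to CCND1, then, CCND3 stood higher at the last day than in hESCs, and CCND2 stood lower around day 9.

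Cyclin E1 (CCNE1, ENSG00000105173, chr19:30302805-30315215, plus strand) activates CDK2 at the end of G1. Its values were 102, 108, 95, 98, 90, 74, 94, 138, 136 and 147. The last 3 libraries were the highest and day 7 was the lowest, but none of the 9 steps between neighbours in order exceeded the SD of 0.36, and the largest was 0.33. The differences were 0.87 (SD 0.33) from day 7 to day 13 and 0.52 (SD 0.30) from day 0 to day 21, both short of the threshold.

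CDK4 (ENSG00000135446, chr12:58142034-58146304, minus strand) is a kinase partner of the D-type cyclins, and it is shown with its promoter because it was the 1 gene of the group that fell over the whole course and its window holds 3 copies of the E-box CACGTG, the sequence that MYC and other factors of its class bind. Likewise the window of CDKN1A, the gene with the widest range, holds 4 copies of the GC box GGGCGG, the sequence that factors such as SP1 bind. GC boxes are not particular to CDKN1A: on either strand the window of CCNE1 holds 7, a window of CCND3 holds 5 and that of CDK4 holds 3. The windows are the 250 bases before the start of each gene in RefSeq on GRCh38.p14, chr12:57752311-57752560 on the minus strand for CDK4 and chr6:36678464-36678713 on the plus strand for CDKN1A, written 5′ to 3′ along the gene, with the E-boxes of CDK4 and the GC boxes of CDKN1A in capitals.
CDK4: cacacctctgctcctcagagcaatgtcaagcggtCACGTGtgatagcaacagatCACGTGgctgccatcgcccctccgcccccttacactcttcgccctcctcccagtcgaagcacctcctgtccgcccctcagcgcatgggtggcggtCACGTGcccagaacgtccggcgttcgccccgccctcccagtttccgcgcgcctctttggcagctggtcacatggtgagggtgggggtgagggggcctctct
CDKN1A: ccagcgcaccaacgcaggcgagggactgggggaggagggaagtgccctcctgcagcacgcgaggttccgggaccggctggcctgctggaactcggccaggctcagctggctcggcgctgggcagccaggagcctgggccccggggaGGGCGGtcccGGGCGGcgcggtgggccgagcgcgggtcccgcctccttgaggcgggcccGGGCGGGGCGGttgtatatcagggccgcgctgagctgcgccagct

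The E-boxes of CDK4 begin 216, 196 and 101 bases before the gene start. Of 35116 windows of this length in the RefSeq promoter set, 6.34% held at least 1 E-box and 0.0797%, or 28 windows, held 3 or more. The GC boxes of CDKN1A begin 104, 94, 45 and 40 bases before the start and the last pair overlap by 1 base. At least 4 GC boxes, on either strand, were found in 7.63% of windows and at least 1 in 42.6%. Of the 9 genes, 7 have a window in this set, 10 windows in all. Sites of the forms TTTCCCGC, TTTCGCGC, TTTGCCGC or TTTGGCGC, which E2F factors bind, on either strand, were found in 0 of these 10 windows and in 2.79% of all windows. A count of 0 among 10 windows is too small to be set apart from that share. The only RB1 window was 36.8% G and C, while the others held 61.2% to 81.2%. Whether it lies at the main start of RB1 was not checked, so no lack of E2F sites is read for RB1. Such matches describe letters and not binding.

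CDK4 was at 430, 478, 474, 383, 378, 436, 424, 341, 332 and 180. It lay between 332 and 478 up to day 13, and the last library stood apart at the bottom. Ordered by level, the step from day 21 up to day 13 was 0.88 with an SD of 0.25, the 1 step of 9 beyond the SD. Over the course it fell by 1.25 (SD 0.26), that is 2.39-fold, and its difference from day 13 to day 21 was -0.88 (SD 0.25). The fall rests on the day 21 library, as day 13 differed from day 0 by -0.37. Up to 891 bases of its exons overlap those of TSPAN31 on the opposite strand. TSPAN31 had values of 68, 60, 50, 38, 44, 49, 39, 37, 74 and 88 in the same order of days. Its part in the values of CDK4 was not tested.

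CDK6 (ENSG00000105810, chr7:92234235-92463231, minus strand), the other kinase of the D-type cyclins, rose between the ends of the course, where CDK4 fell. Over the 10 libraries the r of CDK6 with CDK4, of log2(value + 1), was -0.47. The values of CDK6 were 76, 24, 109, 88, 226, 228, 246, 285, 280 and 238. There were 3 levels: day 1 alone at the bottom, days 0, 2 and 3 between 76 and 109, and all libraries from day 5 on at 226 or more. The steps between these levels, 1.62 from day 1 up to day 0 and 1.05 from day 2 up to day 5, were the 2 of 9 that exceeded the SD of 0.33. CDK6 rose by 1.36 (SD 0.34), or 2.59-fold, from day 3 to day 7 and by 1.63 (SD 0.35), or 3.13-fold, from day 0 to day 21. The ratio of CDK6 to CDK4 was 0.292 times its day 0 value at day 1, 3.35 times at day 5, 4.72 times at day 13 and 7.39 times at day 21.

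p21 (CDKN1A, ENSG00000124762, chr6:36644305-36652288, plus strand) was the most changeable of the genes. It was at 69, 5, 36, 90, 300, 58, 68, 113, 207 and 303, a 60.6-fold span from the lowest library to the highest. It had a trough at day 1, a peak in the day 5 library that was gone by day 7, and a second climb from day 9 to the end. In the order of its levels 5 of 9 steps exceeded the SD of 0.35, more than for any other gene here, and the largest was 2.62 from day 1 up to day 2. It rose by 1.82 (SD 0.33), or 3.57-fold, from day 7 to day 13 and by 2.12 (SD 0.33), or 4.39-fold, from day 0 to day 21. Day 5 is 1 library, and the rise to day 13 depends on where it is measured from, since day 13 was below day 5 by 0.53, and from day 7 to day 11 the difference was 0.95, short of the threshold. Exons of DINOL on the opposite strand overlap CDKN1A by 32 bases.

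p27 (CDKN1B, ENSG00000111276, chr12:12867992-12874138, plus strand) was the steadiest. Its values were 88, 80, 94, 132, 80, 88, 86, 104, 128 and 88, a 1.65-fold span. No step between neighbours in order exceeded the SD of 0.35, and the value at day 21 was that of day 0. The differences of 0.58 (SD 0.34) at day 3 from day 0 and -0.58 (SD 0.34) at day 7 from day 3 both come from the day 3 library. Relative to day 0, the ratio of CDKN1A to CDKN1B was 0.0942 times at day 1, 4.72 times at day 5 and 4.34 times at day 21.

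RB1 (ENSG00000139687, chr13:48877887-48934873, plus strand), the substrate of these kinases, was at 100, 118, 152, 128, 104, 125, 120, 125, 126 and 207. Libraries before day 21 lay between 100 and 152, and day 21 stood above them, by 0.44 over day 2, the next in order, with an SD of 0.30. RB1 rose by 1.04 (SD 0.33), or 2.07-fold, from day 0 to day 21, just past the threshold. The rise rests on the day 21 library, as day 13 differed from day 0 by 0.33. The difference from day 13 to day 21 was 0.71 (SD 0.30).

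By step of the protocol, no gene passed the threshold between the ends of the Activin A step. At day 3 against day 0, 0 of 9 genes were higher, beside 11.1% of all genes compared, and 0 were lower, beside 9.07%. In the FGF4 and BMP2 step, from day 3 to day 7, CDK6 rose and CCND2 fell, each 1 of 9, beside 13.2% and 12.8%, with the CCND2 call lost under the settings named above. In the HGF and KGF step, from day 7 to day 13, CCND3 and CDKN1A rose, 2 of 9 beside 9.65%, and 0 fell beside 8.21%. From day 13 to day 21, in OSM, 0 rose beside 8.57% and 0 fell beside 9.08%. Counts of 0 to 2 among 9 genes are too small to be set apart from these shares.

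The libraries within a step held larger movements, and these 3 comparisons were chosen after the values of CDKN1A were seen. On day 1 against day 0, CDK6 fell by 1.62 (SD 0.39) and CDKN1A fell by 3.54 (SD 0.61), 2 of 9 genes lower beside 4.71% of all genes compared, and 0 were higher beside 4.01%. From day 1 to day 5 the same pair rose, CDK6 by 3.18 (SD 0.35) and CDKN1A by 5.65 (SD 0.44), 2 of the 8 genes with a large enough value, beside 12.9%, while 0 fell beside 11.7%. From day 5 to day 7 CDKN1A fell by 2.35 (SD 0.35), 1 of 9 beside 6.35%, and 0 rose beside 7.7%, with CDK6 at 226 and 228. The low point of CDK6 and CDKN1A therefore rests on the day 1 library and the peak of CDKN1A on the day 5 library. At day 2 CDK6 was above day 0 by 0.51 and CDKN1A below it by 0.92.

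Where pairs of these genes were followed over the 10 libraries, which share 1 time course and are not replicates, Pearson's r of log2(value + 1) was highest for CDK6 with CDKN1A at 0.81, CCND3 with CCNE1 at 0.74 and CCND1 with CDK4 at 0.68. It was lowest for CCND3 with CDK4 at -0.77, CDK4 with RB1 at -0.71 and CCNE1 with CDK4 at -0.70. Within the D-type cyclins CCND1 and CCND2 had an r of -0.56. Over all 10 libraries CDK4 thus ran against CCND3, CCNE1 and RB1 and along with CCND1. Day 21 holds the lowest value of CDK4 and CCND1 and the highest of CCND3, CCNE1 and RB1. For CDK4 and RB1 it is the 1 library set apart from the rest beyond the SD. CDK6 and CDKN1A were both lowest at day 1, at 24 and 5. From day 5 to day 7 CDKN1A went from 300 to 58 with CDK6 at 226 and 228. No r was recomputed with a library left out. The pairs named here are 7 of the 36.

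The genes whose pattern was most like each member, by the same r over the same libraries, were picked from all genes that spanned at least 2-fold. They are the highest of very many genes over 10 libraries, so a high r can be found for almost any pattern and nothing is read from it. For CCND1 they were TLE4 (r = 0.92) and TAF3 (0.90), and for CCND2 STARD3 (0.96), IMPDH1 (0.94) and ARG2 (0.93). For CCND3 they were SIRT2 (0.99), B2M (0.99) and MST1 (0.98), and for CCNE1 PARP14 (0.92), DIP2A (0.91) and FKBP2 (0.90). CDK4 was most like MCM2 (0.98), GNPNAT1 (0.98) and IPO4 (0.97), of which MCM2 is a subunit of the replicative helicase. CDK6 was most like ASXL3 (0.99), NBPF15 (0.97) and UBR1 (0.97), and CDKN1A most like CNTNAP1 (0.95), MAN2A2 (0.94) and NCOA3 (0.93). For CDKN1B the likeness was weaker, with NT5DC3 (0.86), ST13 (0.82) and PRICKLE1 (0.80), and for RB1 the genes were VSTM4 (0.93), C5orf25 (0.92) and CD109 (0.90).

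The other genes of the pathway were read in the same way. Of 22 further genes of the RB and E2F pathway 18 were in the table, and from day 0 to day 21, of 15 with a large enough value, 2 rose and 8 fell, 13.3% and 53.3% beside the 23.9% and 26.4% of all genes, with a median of -1.18. The p57 inhibitor CDKN1C had values of 20, 57, 372, 1045 and 1130 on days 0, 3, 5, 7 and 21, a log2 difference of 5.75 between the ends and of 4.17 between days 3 and 7. So among the inhibitors of this family CDKN1C and CDKN1A rose and CDKN1B was level. E2F1, an activating E2F factor, fell from 101 to 6, and CDC25A, the phosphatase that activates CDK2, from 203 to 16. E2F7 was at 86 in hESCs and listed at 0 on day 21. CDK2 itself was at 133, 395 and 244 on days 0, 13 and 21, and SKP2, which marks p27 for destruction, rose from 148 to 316 between days 0 and 3. In the shorter comparisons, of the genes with a large enough value, 2 of 15 rose and 0 fell from day 0 to day 3, beside 11.1% and 9.07% of all genes, and 2 rose and 4 of 15 fell from day 3 to day 7, beside 13.2% and 12.8%. From day 7 to day 13, 1 of 12 rose and 0 fell, beside 9.65% and 8.21%, and from day 13 to day 21, 0 rose and 2 of 11 fell, beside 8.57% and 9.08%. These counts of 0 to 4 genes are too small to be set apart from those shares.

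Downstream, all 27 genes of DNA replication that E2F drives were lowest at day 21, and so were all 20 mitotic genes. Between the ends of the course 27 of 27 replication genes fell, with a median of -3.41, and 20 of 20 mitotic genes, with a median of -3.51, beside the 26.4% given for all genes. Cyclin A2 (CCNA2) fell from 305 to 8, the replication initiation factor MCM10 from 112 to 3 and the checkpoint kinase BUB1B from 676 to 14. Within the Activin A step both lists were lower on day 3 than on the days just before. The summed value of the replication genes was 8757, 10843, 9404 and 6817 on days 0 to 3, and that of the mitotic genes 8188, 9290, 9368 and 5173. Against day 0 the day 3 medians were -0.48 and -0.52, and 1 gene of each list, CDT1 and BUB1B, passed the threshold. From day 3 to day 7, 17 of 27 replication genes fell and 0 rose, and 19 of 20 mitotic genes fell while 1, CENPA, rose, beside 12.8% lower and 13.2% higher of all genes. With day 5 in place of day 7, 4 replication genes and 0 mitotic genes fell. From day 7 to day 13, 13 of 20 mitotic genes rose, beside 9.65% of all genes, with a median of 1.21, among them topoisomerase TOP2A from 149 to 628, CDK1 from 146 to 531 and MKI67 from 122 to 390. In that interval 3 of 21 replication genes rose and 0 fell. With day 5 in place of day 7, 1 mitotic gene rose. The day 7 library is the low point of both movements, with mitotic sums of 5173, 5051, 1798, 3207, 5067 and 4356 on days 3, 5, 7, 9, 11 and 13. From day 13 to day 21, 18 of the 20 replication genes with a large enough value fell and all 20 mitotic genes did, beside 9.08% of all genes. Cell type markers moved in the same intervals. Between days 3 and 7, 3 of the 4 pluripotency markers with a large enough value fell, with a median of -3.48, POU5F1 from 1280 to 88 and NANOG from 286 to 32 among them, while LIN28A was at 2971 and 2970. The 5 endoderm markers summed to 3142 and 477 on those days and the 6 hepatic markers to 119 and 28184, with AFP at the ceiling of 18734 on day 7. On days 13 and 21 the stromal sums were the 38640 and 41783 given above. Their part in these counts was not tested.

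Set beside these lists, CDK4 ran most closely with them: its r was positive with 27 of 27 replication genes, with a median of 0.82, and with 20 of 20 mitotic genes, with a median of 0.75. CCND1 was positive with the same 27, with a median of 0.48. Both genes and both lists were lowest at day 21, and no r was computed without that library. CDK4 and CCND1 went down with the lists from day 0 to day 3 (-0.17 and -0.95) and from day 13 to day 21 (-0.88 and -0.78). From day 3 to day 7, when the lists fell, CDK4 was higher by 0.19 and CCND1 by 0.98. From day 7 to day 13, when mitotic genes rose, they differed by -0.39 and -0.25. The r of CCND3 (median -0.78), CDK6 (-0.67), RB1 (-0.65), CDKN1A (-0.64) and CCNE1 (-0.44) was negative with all 27. CCNE1 is itself known as a target of E2F, but its r with these genes ran from -0.57 to -0.18, and at day 21, where the list was lowest, it had its highest value, 147. The size of the fall also differed: CDK4 fell by 1.25 over the course, compared with the list median of -3.41.

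**Figure D2:**
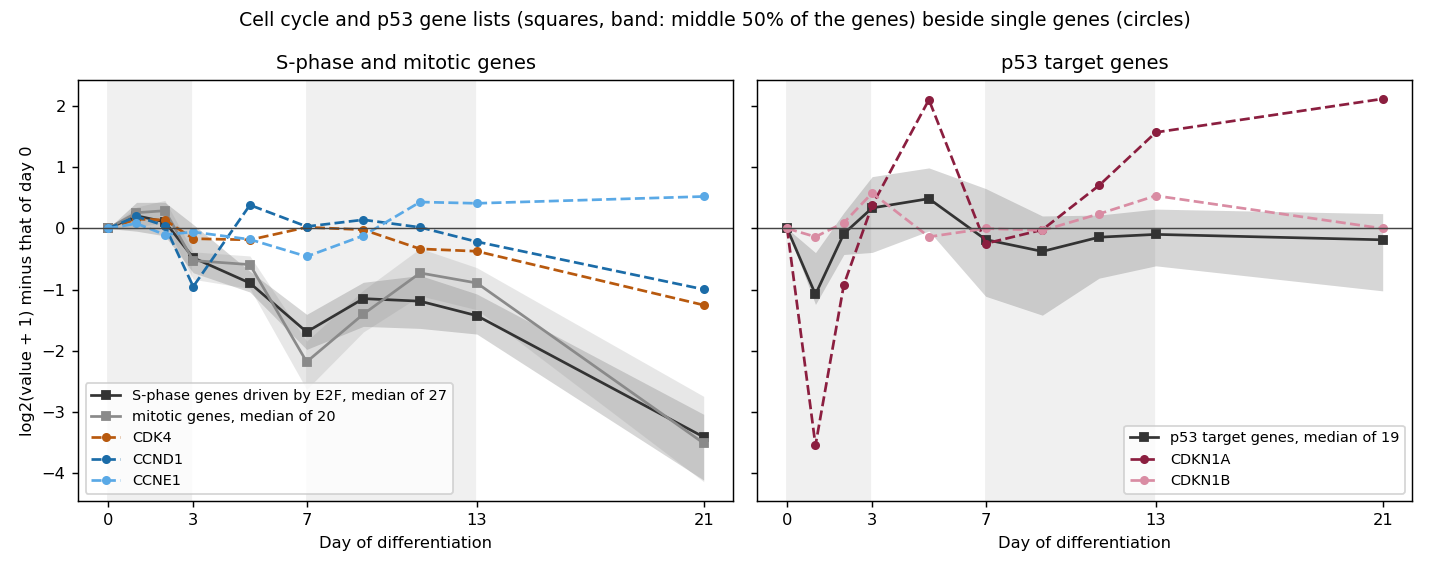
Median over each gene list of log2(value + 1) minus that of day 0 (squares, with a band for the middle 50% of the genes) and single genes (circles) against day. The replication and mitotic medians end at -3.41 and -3.51, well below CDK4 at -1.25, and the p53 target median has its low at day 1 and its high at day 5, as CDKN1A has its trough and early peak, but does not follow the late climb of CDKN1A.

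CDKN1A was read beside 20 further targets of p53, of which 19 were in the table. Of these 19 genes 9 had their lowest value at day 1 and 9 their highest at day 5. Between days 0 and 1, 8 of 14 fell and 0 rose, 57.1% beside 4.71% of all genes, with a median of -1.09. With day 2 in place of day 1, 1 fell, and at a 4-fold threshold 0 did, so the count rests on the day 1 library. SESN1 fell from 100 to 34, ZMAT3 from 60 to 21 and PHLDA3 from 82 to 32. From day 1 to day 5, 12 of 17 rose and 0 fell, 70.6% beside 12.9%, among them TP53INP1 from 35 to 287, the growth arrest gene GADD45A from 24 to 163 and the p53 ligase MDM2 from 147 to 508. With day 2 in place of day 1, 7 rose. From day 5 to day 7, 5 of 17 fell and 0 rose, 29.4% beside 6.35% of all genes for the falls, among them the cell death gene BBC3, from 76 to 16. The list and CDKN1A parted after that. From day 7 to day 13, when CDKN1A rose, 0 of 16 list genes rose or fell, beside 9.65% and 8.21% of all genes. Over the whole course 2 of 14 rose, such as ZMAT3 from 60 to 179, and 3 fell, such as CCNG1 from 2798 to 478, beside 23.9% and 26.4%. Over all 10 libraries the r of CDKN1A with the 19 genes had a median of 0.38 and ran from -0.53 to 0.91, positive for 13 and negative for 6. In the Activin A step, days 0 to 3, 4 of 17 rose, 23.5% beside 11.1% of all genes, among them BTG2 from 22 to 180. From day 3 to day 7, 1 rose and 4 of 17 fell, beside 13.2% and 12.8%, CCNG1 from 6496 to 756 among them.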

How the data were processed

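Total RNA of H1 cells was made into bulk RNA-seq libraries, 1 per day at 10 days. Per the study's methods and the submitters' processing notes, the authors used RSEM 1.2.17 with Bowtie2 2.2.0 to align and count reads, and EDASeq to remove the effect of GC content. The values the authors deposited are whole-number scores and not read counts, so no count test was run, and the study's methods state only a mean depth, not that of each library. The processing notes name the builds hg19 and mm10 without their roles, and the gene intervals given here are those of the table. All 10 value columns were matched to their day by name and title.

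The differences, counts and correlations were computed in Python 3.11.15 (scipy 1.17.1, pandas 2.3.3, numpy 2.4.6, and matplotlib 3.10.9 for plots). A pseudocount of 1 was used. The genes compared between a pair of days are those whose larger value was at least 50. The code was first tested on simulated data. Overlapping genes were taken from GENCODE release 29, and promoter windows from RefSeq, where CCND1 and CCND2 had none.

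The members and gene lists were chosen with earlier results of these data known. Named are every member, the 3 genes most like each by r (largest value at least 50, range at least 1 on the log2 scale) and up to 4 genes per list and comparison with the largest differences. CDK2, MDM2 and CENPA were named after their values were seen, and 1 gene that this rule picks is not reported here. Alternatives tried were pseudocounts of 0.1 and 5, other scalings, a larger value of at least 100, a 4-fold threshold, and a neighbouring day in place of a named day.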

Additional observations from a re-analysis of the deposited data

How the results depend on the processing

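No paired analysis was possible because each day has 1 library and no replicate, and for the same reason no library could be left out of a group. The replacement of a day by its neighbour, the comparisons of days 1, 5 and 7 and the list counts under alternatives include choices made after seeing the data. Of 369 recomputed log2 differences 329 moved by less than the SD between days 9 and 11, 38 moved by more and 2 reversed: CDKN1A from day 7 to day 13, 1.82, was -0.53 from day 5, and CDK6 from day 0 to day 1, -1.62, was 0.51 at day 2. Most of the 38 came with a neighbouring day in place of a named day. The deposited distributions were already alike, and full quantile scaling shifted the median of all genes by 0.03 at most. The pooled count thus includes settings that could hardly move a difference. All 144 recomputed pair correlations moved by less than 0.2. They were recomputed with other pseudocounts and scalings and with every library kept, so the reliance of an r on 1 library was not tested. Of 72 days of a highest or lowest value 68 stayed, the other 4 moving under median-of-ratios scaling. That scaling shifted the median of all genes by 0.19 from day 0 to day 21, with RB1 then at 1.23, CCND1 at -0.81 and CDK4 at -1.06, and by less than 0.1 elsewhere. Of 130 member counts 111 stayed within 1.5 times.

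At 4-fold, the members higher became 0 for days 3 to 7, 0 for days 7 to 13 and 1 for days 0 to 21, and the members lower 0 for days 3 to 7, 0 for days 0 to 21 and 1 for days 0 to 1. For days 3 to 7, median-of-ratios scaling gave 2 members higher and 0 lower, and a pseudocount of 5 gave 0 lower. With day 2 in place of day 3, 0 were lower at day 7, and with day 5 in place of day 7, 3 were higher and 0 lower than at day 3. From day 5 to day 13, 1 was higher, and from day 7 to day 11, 0. On day 21 against day 11, 2 members were higher and 1 was lower. On day 13 against day 0, 0 were lower. On day 1 against day 0, 0 were lower with a larger value of at least 100, and 0 with day 2 in place of day 1. No share of all genes stands beside these counts, so they show only how a count moved.

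Of the list counts 68 of 82 stayed within 1.5 times. At 4-fold, the replication genes lower were 5 from day 3 to day 7 and 10 from day 13 to day 21, the mitotic genes 5 lower from day 3 to day 7 and 1 higher from day 7 to day 13, and the p53 targets 0 lower from day 0 to day 1, 6 higher from day 1 to day 5 and 1 lower from day 5 to day 7. With day 5 for day 7, 4 replication and 0 mitotic genes were lower than at day 3, and 1 mitotic gene was higher at day 13. On day 13 against day 0, 9 mitotic genes were lower. Of the p53 targets, 5 were lower from day 0 to day 1 with a larger value of at least 100 and 1 with day 2 for day 1, and 7 were higher from day 2 to day 5. The list counts under these alternatives, here and above, have no share of all genes beside them. They show only how a count moved and not whether it exceeds that of the whole table. Stricter thresholds count fewer genes by construction, and the cause of the other moves was not tested. The day 1 and day 5 patterns of CDKN1A and the p53 targets, the day 7 low of the mitotic and replication genes and the day 21 levels each rest on 1 library.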
